A study of Mus musculus with 9 samples.

Results

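The genes described here are 47 named genes of neurons and neuroendocrine cells: Rest, which codes for a transcriptional repressor of such genes, and 46 genes for proteins of synaptic vesicles, transmitter release, secretory granules, synaptic adhesion, glutamate reception, ion channels and the neuronal cytoskeleton. They were taken by gene symbol, and all 47 were found among the 43629 genes measured in RAW264.7, a macrophage-like cell line of the mouse that came from a virus-induced tumour. The data were RNA sequencing from 3 groups of 3 libraries each, described as biological replicates: untreated cells (control), cells given LPS (bacterial lipopolysaccharide, the endotoxin sensed by Toll-like receptor 4) and cells given LPS after pretreatment with NaBu (sodium butyrate, a short-chain fatty acid that inhibits class I histone deacetylases), called LPS+NaBu. Cells given NaBu without LPS are not part of the design used here, and the labels give neither doses nor times, so each NaBu value is that of NaBu together with LPS. All groups are 1 cell line, which limits what they stand for as macrophages.

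REST, also called NRSF, is a zinc finger protein that binds a DNA element named RE1 near many neuronal genes and keeps those genes low in cells that are not neurons. Its N-terminal part recruits SIN3 proteins and its C-terminal part recruits CoREST (Rcor1), each of which brings histone deacetylases (HDAC1, HDAC2), and CoREST also brings the histone demethylase KDM1A. Many of the genes that REST acts on code for the machinery of regulated secretion: vesicle proteins, synaptotagmins (calcium sensors), SNARE proteins (which fuse membranes) and granins (the cargo of dense-core granules).

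The deposited values are read counts divided by 1 size factor per library, called normalised counts here; gene length does not enter them, and different genes are therefore compared only per kilobase of exon. The libraries held 37.6 to 64.4 M (1e6) counted reads, and 1 read was worth 0.688 to 1.41 normalised counts. Values correlated at 0.987 to 0.993 within groups and at 0.89 to 0.946 between groups (log2 scale, across genes). Among values of 1 to 20 reads, 70.0% were even numbers, so the reads behind a low value may not be independent of each other, and the cause was not tested. If they are not, the limits and intervals from counting error given below are too narrow.

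Of the 47 genes, 20 reached the level needed for a test, which was 10 normalised counts in at least 3 libraries, and 18 of these also reached it on the control and LPS libraries alone. The other 2, Syt7 and Nrxn2, passed only through the LPS+NaBu libraries where they were high. The remaining 27 were below that level. Of those, 8 had no read in any of the 9 libraries: Snap25, Syt1, Chga, Gria2, Scn2a1, Stmn2, Gap43 and Bex1. A count of 0 allows up to 3 reads, or 2.06 to 4.24 normalised counts depending on the library, for counting error only. The other 19 had reads but stayed at or below 16.3 normalised counts in every library. Several genes that define a neuron or its synapse, among them the SNARE protein gene Snap25, the calcium sensor gene Syt1, the AMPA receptor gene Gria2 and the growth cone protein gene Gap43, were thus not detectable at this depth in any group.

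Rest itself was well expressed in all 9 libraries. Its normalised counts were 2337, 2461 and 2316 in control, 3032, 2184 and 2421 with LPS and 2090.4, 1995 and 2313 with LPS+NaBu. The replicates of the LPS group spread more than the others, since LPS replicate 1 was the highest of the 9 libraries and LPS replicate 2 lay below all 3 controls. LPS and control did not differ by the test (log2 change 0.09 ± 0.10, adjusted p = 0.47, limma, p adjusted by Benjamini-Hochberg across all 14808 tested genes). LPS+NaBu libraries averaged 2133 ± 163 (SD, n = 3) against 2546 ± 437 with LPS, a difference of 1.19-fold that passed the test (log2 change -0.24 ± 0.10, adjusted p = 0.0362) although the groups overlapped. Without LPS replicate 1 the log2 change was -0.11 with an adjusted p of 0.174, and with every library scaled to the same sum it was 0.03 with an adjusted p of 0.789, so the call was lost in both. It was also lost without control replicate 1, LPS+NaBu replicate 1 or LPS+NaBu replicate 2 (adjusted p from 0.0507 to 0.136), without the intensity trend, with quantile normalization and in a fit of only these 2 groups. Rest did not pass the test between LPS+NaBu and control (log2 change -0.16 ± 0.10, adjusted p = 0.166).

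RE1 elements were looked for as a description of the genes, since this is the element that REST reads. The element was written as a left part, TTCAGCACC, then 2 bases of any kind, then a right part, GGACAGCGC, and was searched on both strands. In windows of 250 bases before to 50 bases after the gene start (RefSeq promoters, GRCm38.p6, 30 of the 47 genes present), 3 genes, Syn1, Celsr3 and Gria2, held a match with at most 4 mismatches at the 18 fixed letters, against 0.481% of all 32851 windows. The left part alone, with no mismatch, was found in the windows of Celsr3, Scg2, Syn1 and Unc13a (0.371% of all windows), and the right part alone in those of Gria2 and Unc13a (0.405%). A wider search, chosen after seeing the data, took the 10 kb around each gene start in the mouse genome GRCm39 (GENCODE M39 gene models). With at most 3 mismatches, 16 of the 47 genes held a match there, against 431 of all 21765 protein-coding genes (1.98%). With at most 1 mismatch the counts were 9 of 47 and 56 of 21765 (0.257%). A match is a description of the letters and not a measured binding site, and genes without one may hold RE1 elements farther away.

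The matches shown are from the wider search and are those of the 6 genes that held one and rose with LPS+NaBu over LPS, then those of the 4 genes that held one and had no reads, so that both kinds can be compared. Each is written 5′ to 3′ in the direction of the element, and capitals mark the letters that match its fixed letters.
Vgf: TTCAGCACgctGGACAGCGC
Grin1: TTCAGCACCtcGGACAGCaC
Syn1: TTCAGCACCgcGGtCAGaGC
Syp: TcCAGCACCgtGGACAGaGC
Celsr3: TTCAGCACCgtGGgCAGCaC
Cacna1b: gTCAGCACCacGGACAGCtg
Stmn2: TTCAGCACCacGGACAGCGC
Chga: TTCAGCACCtcGGACAGCaC
Gria2: TTtAGCACCgcGGACAGCGC
Scn2a1: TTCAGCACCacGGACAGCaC

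Positions are those of GRCm39. The Syn1 match lies at chrX:20787370-20787389 on the minus strand, in an untranslated exon with its middle 17 bases into the gene. The Celsr3 match (chr9:108703117-108703136, plus strand) lies outside the gene, centred at position -392 from its start. The Grin1 match (chr2:25209027-25209046, minus strand) and the Gria2 match (chr3:80710296-80710315, plus strand) lie in untranslated exons, at positions 189 and 232. That of Syp (chrX:7504976-7504995, plus strand) lies in a coding exon at position 276, that of Vgf (chr5:137059129-137059148, minus strand) in an untranslated exon at position 3893 and that of Cacna1b (chr2:24652095-24652114, plus strand) in an intron at position 1116. The Stmn2 match, which has no mismatch, lies at chr3:8573290-8573309 on the plus strand at position -851. The matches of Scn2a1 (chr2:65450308-65450327, plus strand, position -784, outside the gene) and Chga (chr12:102521497-102521516, plus strand, position 1023, coding exon) each have 1 mismatch, and Chga and Grin1 hold the same 20 letters.

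Genes with and without a match were found both among the tested genes and among those without reads. Of the 16 genes with a match, 6 were tested and 4 had no reads, while of the 31 genes without one, 14 were tested and 4 had no reads. All 6 tested genes with a match exceeded their LPS level with LPS+NaBu, and so did 10 of the 14 tested genes without one, Syt7 and Nrxn2 among them. These are counts and were not tested against each other.

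**Figure D1:**
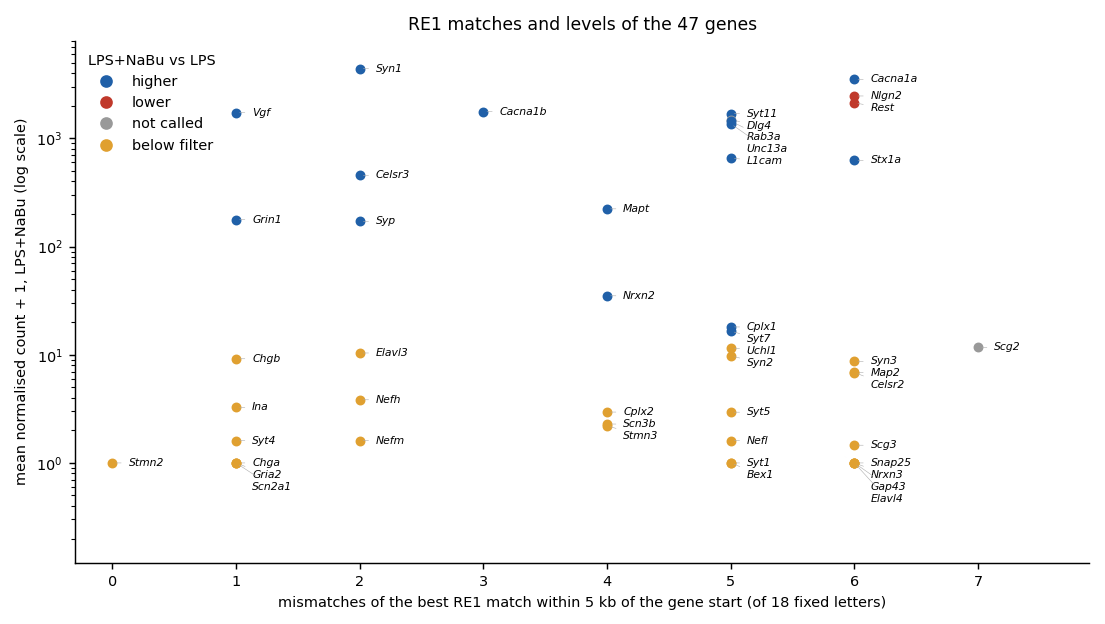
Mismatches of the best RE1 match within 5 kb of the gene start (x axis, of 18 fixed letters) against the mean normalised count + 1 with LPS+NaBu (y axis, log scale, n = 3) for the 47 genes, coloured by the test of LPS+NaBu against LPS. Genes with 0 to 3 mismatches range from no reads (Stmn2, Chga, Gria2, Scn2a1) to 4410.5 (Syn1), and genes with more mismatches from no reads (Snap25, Syt1, Gap43, Bex1) to 3507 (Cacna1a). The colours of Syt7 and Nrxn2 are not read as calls, since both passed the filter only through the LPS+NaBu libraries. These counts are not divided by gene length, so heights of different genes do not compare. Per kilobase of exon the highest of each kind are Syn1 (1067) and Rab3a (479.5), with Cacna1a at 184.

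The comparison of LPS+NaBu with LPS alone asks what butyrate pretreatment changed in stimulated cells. Syt7 and Nrxn2 entered the test through the group where they were high, so the 18 genes that passed on the control and LPS libraries alone are given first. Of these, 14 were higher with LPS+NaBu (77.8%) and 2 were lower (11.1%), where a gene counts as higher or lower at an adjusted p below 0.05. Of the 13690 genes tested that passed in the same way, 37.3% were higher and 40.9% lower. The median log2 change was 1.78 for the 18 genes and -0.06 for the 13690. With Syt7 and Nrxn2 the counts were 16 and 2 of 20, and over all 14808 genes tested the shares were 40.2% higher and 37.8% lower. With every library scaled to the same sum, the median of all genes moved up by 0.28 on the log2 scale and the split over all genes went from 5956 higher and 5602 lower to 7417 and 4132; the 20 genes then gave 17 higher and 0 lower. By edgeR on the recovered reads 14 were higher, with the median of all genes shifted by -0.10 on the log2 scale. In bulk RNA, fewer cells of a kind and less RNA per cell cannot be told apart.

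**Figure D2:**
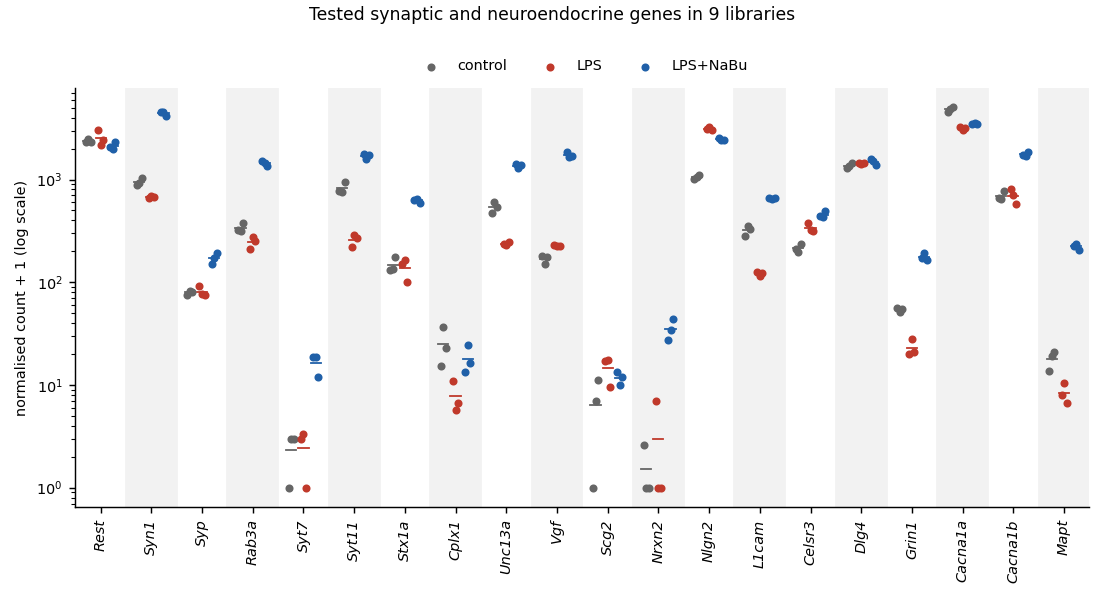
Normalised count + 1 (log scale) of the 20 tested genes in each of the 9 libraries, with points for libraries and bars for group means (n = 3 per group). Syn1 lies at 4500.5, 4559.5 and 4172 with LPS+NaBu against 659.7, 696 and 671 with LPS. For Rest, Dlg4 and Scg2 these 2 groups overlap, and Nlgn2 lies below its LPS libraries with LPS+NaBu.

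All 3 tested genes for synaptic vesicle proteins rose. Syn1 codes for synapsin I, which tethers vesicles to the actin cytoskeleton, and its normalised counts were 887, 934 and 1044 in control, 659.7, 696 and 671 with LPS and 4500.5, 4559.5 and 4172 with LPS+NaBu. The groups did not overlap in any comparison: Syn1 was lowest with LPS and 6.53-fold higher with LPS+NaBu (log2 change 2.7 ± 0.07, adjusted p = 9.95e-13), which was also 4.62-fold above control (log2 change 2.21 ± 0.07, adjusted p = 6.5e-12). Rab3a, a small GTPase of vesicles near release sites, had 318, 315 and 374 in control, 208, 273 and 249 with LPS and 1524, 1446 and 1362 with LPS+NaBu. It rose 5.94-fold over LPS (log2 change 2.57 ± 0.11, adjusted p = 1.56e-10). Syp codes for synaptophysin, an abundant membrane protein of synaptic vesicles, and its values were 74.7, 82 and 79.5 in control, 91.2, 75.1 and 73.4 with LPS and 149.9, 169.5 and 189.6 with LPS+NaBu. Control and LPS values of Syp overlapped, and LPS+NaBu was 2.12-fold above LPS (log2 change 1.08 ± 0.16, adjusted p = 4.52e-05). The related synapsin genes Syn2 and Syn3 stayed below the test level, with means of 8.74 and 7.7 with LPS+NaBu and at most 2.26 in the other groups.

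Of the 5 synaptotagmin genes, Syt11 rose, and Syt7 had few reads outside the LPS+NaBu libraries. Syt11, a synaptotagmin that does not bind calcium and acts in endocytosis and phagocytosis, had 769.6, 759 and 936 in control, 221, 285 and 271 with LPS and 1769, 1584 and 1722 with LPS+NaBu. LPS lowered it by 3.17-fold (log2 change -1.66 ± 0.11, adjusted p = 2.88e-08) and LPS+NaBu brought it 6.53-fold above LPS (log2 change 2.71 ± 0.11, adjusted p = 7.43e-11) and 2.06-fold above control. Syt7, a slow calcium sensor that also acts in lysosome exocytosis, had 0, 2.0 and 2.01 in control, 2.01, 2.35 and 0 with LPS and 17.9, 17.8 and 10.9 with LPS+NaBu. Its control and LPS values rest on 4 and 4 reads in all, and 54 reads were counted with LPS+NaBu, and since it passed the filter only through those libraries no test is given. Syt4 and Syt5 had at most 1.95 in any group mean, and Syt1 had no reads.

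The genes for SNARE and priming proteins were split by detection. Unc13a codes for MUNC13-1, which primes vesicles for release, and had 472, 603 and 542 in control, 234, 231 and 243 with LPS and 1430.3, 1303 and 1369 with LPS+NaBu. It was 5.8-fold higher with LPS+NaBu than with LPS (log2 change 2.53 ± 0.09, adjusted p = 3.29e-11) and the 3 groups did not overlap. Stx1a, syntaxin 1A of the plasma membrane, had 130.4, 134 and 175 in control, 149, 163 and 98.9 with LPS and 633, 645 and 596 with LPS+NaBu. Its control and LPS libraries overlapped, and LPS+NaBu was 4.55-fold above LPS (log2 change 2.21 ± 0.18, adjusted p = 9.26e-08). Cplx1, complexin 1, which clamps SNARE complexes, was low, at 14.3, 36 and 22.1 in control, 10.03, 4.7 and 5.65 with LPS and 12.4, 23.4 and 15.4 with LPS+NaBu. LPS+NaBu exceeded LPS (log2 change 1.23 ± 0.43, adjusted p = 0.0192), a call that was lost in 4 of the alternative settings (adjusted p from 0.00737 to 0.398 over all of them), among them those without LPS replicate 2 or LPS+NaBu replicate 2 and the edgeR test. The partner of Stx1a at synapses, Snap25, had no reads, and Cplx2 averaged 1.95 with LPS+NaBu and had no reads in the other groups.

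Of the 5 genes for granins and secretory peptides, Vgf rose and the others were low or without reads. Vgf codes for the precursor of several neuroendocrine peptides, and its values were 179, 150.0 and 176 in control, 231, 227 and 223 with LPS and 1857, 1656 and 1679 with LPS+NaBu. LPS raised Vgf 1.35-fold (log2 change 0.43 ± 0.10, adjusted p = 0.00187), a call lost with all libraries at the same sum (0.21, adjusted p = 0.0722). LPS+NaBu raised it a further 7.63-fold (log2 change 2.92 ± 0.10, adjusted p = 1.08e-11), to 10.3 times control (log2 change 3.36 ± 0.10, adjusted p = 3.46e-12). Scg2, secretogranin II, had 0, 6.0 and 10.1 in control, 16, 16.4 and 8.47 with LPS and 12.4, 8.92 and 10.9 with LPS+NaBu and passed no test, with a log2 change of -0.28 ± 0.73 between LPS+NaBu and LPS. Chgb, chromogranin B, averaged 8.19 with LPS+NaBu and 1.28 with LPS, Scg3 at most 0.458 in a group, and Chga had no reads.

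The adhesion genes moved in different directions. L1cam, a cell adhesion protein of axons, had 283, 350.0 and 327 in control, 125, 114 and 123 with LPS and 661, 644 and 666 with LPS+NaBu, so that LPS lowered it by 2.65-fold (log2 change -1.4 ± 0.11, adjusted p = 1.42e-07) and LPS+NaBu exceeded LPS 5.44-fold (log2 change 2.44 ± 0.11, adjusted p = 1.78e-10). Celsr3, an adhesion receptor of the planar polarity family, had 211, 196 and 236 in control, 378, 318 and 316 with LPS and 441, 435 and 489 with LPS+NaBu, and rose in both steps (log2 change 0.65 ± 0.11, adjusted p = 0.000279 with LPS and log2 change 0.43 ± 0.11, adjusted p = 0.00346 with LPS+NaBu over LPS). Nlgn2 codes for neuroligin 2, the postsynaptic partner of neurexins at inhibitory synapses, and had 1014, 1053 and 1094 in control, 3073, 3217 and 3034 with LPS and 2558, 2439 and 2405 with LPS+NaBu. LPS raised Nlgn2 2.95-fold (log2 change 1.56 ± 0.05, adjusted p = 3.1e-11), and LPS+NaBu was 1.26-fold below LPS without overlap (log2 change -0.33 ± 0.05, adjusted p = 5.82e-05). With all libraries at the same sum, that lower value no longer passed (-0.06, adjusted p = 0.316). Nrxn2, a neurexin of the presynaptic side, had 1.59, 0 and 0 in control, 6.02, 0 and 0 with LPS and 26.1, 33.5 and 42.6 with LPS+NaBu. The LPS+NaBu value of Nrxn2 rests on 115 reads against 6 with LPS, all in replicate 1, and 2 in control. Like Syt7, Nrxn2 passed the filter only through the LPS+NaBu libraries and no test is given. Celsr2 averaged 5.85 with LPS+NaBu and 0.942 with LPS, and Nrxn3 had 4 reads with LPS and none elsewhere.

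Postsynaptic and channel genes included large changes and near-constant levels. Grin1, the obligatory subunit of NMDA receptors, had 55.7, 50.01 and 54.3 in control, 19, 27 and 19.8 with LPS and 171, 193 and 165 with LPS+NaBu, with no overlap between any groups. It fell 2.43-fold with LPS (log2 change -1.26 ± 0.20, adjusted p = 0.000142) and was 8.04-fold higher with LPS+NaBu than with LPS (log2 change 2.96 ± 0.20, adjusted p = 1.54e-08). Dlg4, the scaffold protein PSD-95, averaged 1356 ± 80.4, 1433 ± 30.9 and 1487 ± 111 in control, LPS and LPS+NaBu (SD, n = 3) and passed no test, with a log2 change of 0.05 ± 0.07 between LPS+NaBu and LPS; scaled to the same sum, it was called higher (0.33, adjusted p = 0.000459), and by edgeR the change was -0.05. Cacna1b, the pore of N-type calcium channels, had 659, 640.1 and 764 in control, 801, 714 and 572 with LPS and 1723, 1708 and 1861 with LPS+NaBu, and rose 2.54-fold over LPS (log2 change 1.35 ± 0.11, adjusted p = 9.85e-08). Cacna1a, the pore of P/Q-type calcium channels, was high in all groups, at 4572, 4874 and 5054 in control, 3242, 3028 and 3165 with LPS and 3474, 3542 and 3505 with LPS+NaBu. LPS lowered it by 1.54-fold (log2 change -0.62 ± 0.05, adjusted p = 1.68e-07) and LPS+NaBu was 1.12-fold above LPS (log2 change 0.16 ± 0.05, adjusted p = 0.00933), which edgeR did not call (0.05, adjusted p = 0.35). The sodium channel subunit gene Scn3b had a mean of at most 2.26 in a group, and Scn2a1 had no reads.

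Mapt, which codes for the microtubule-binding protein tau, was the tested gene of the neuronal cytoskeleton and had the largest log2 change of the 20 genes between LPS+NaBu and LPS. Its values were 12.7, 18 and 20.1 in control, 7.02, 9.39 and 5.65 with LPS and 225, 235 and 207 with LPS+NaBu. All 3 LPS libraries lay below control (2.3-fold lower, log2 change -1.1 ± 0.27, adjusted p = 0.00386), and LPS+NaBu was 30.2-fold above LPS (log2 change 4.76 ± 0.27, adjusted p = 2.66e-09) and 13.1-fold above control (log2 change 3.66 ± 0.27, adjusted p = 4.41e-08). Map2, the dendritic microtubule-associated protein gene, averaged 5.89 with LPS+NaBu, 0.782 with LPS and 1.2 in control. The neurofilament genes Nefl, Nefm, Nefh and Ina stayed at group means of at most 2.84, Stmn3 at 2.22 or less, and Stmn2 and Gap43 had no reads.

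**Figure D3:**
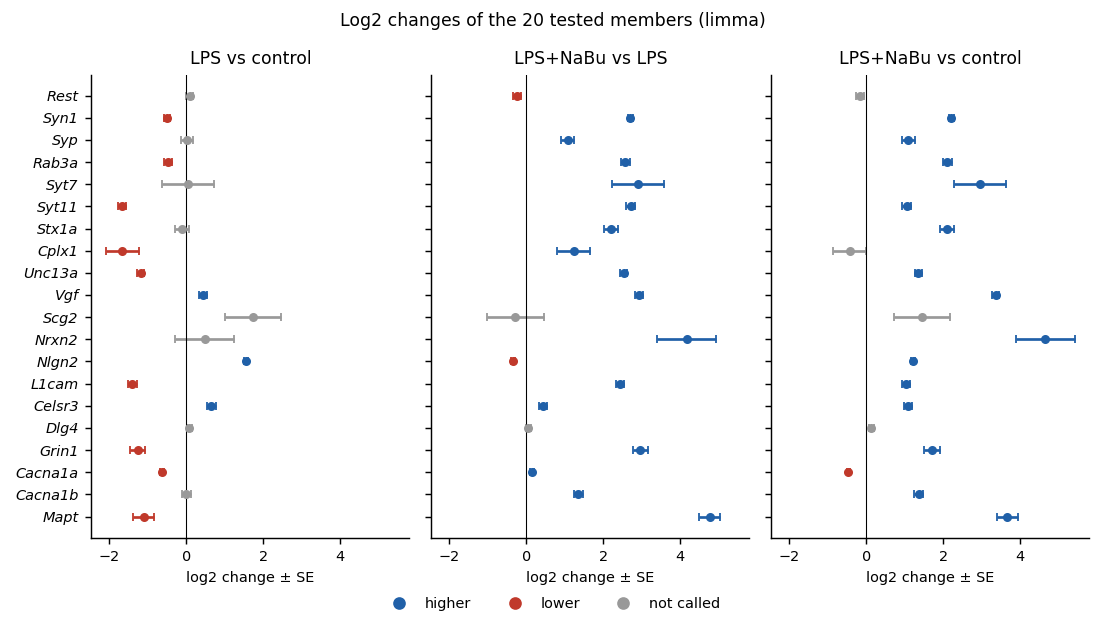
Log2 change ± SE of the 20 tested genes in the 3 comparisons (limma, 9 libraries), coloured by whether the gene passed an adjusted p below 0.05 in that direction. With LPS+NaBu over LPS, 16 called genes lie to the right of 0, Mapt at 4.76 ± 0.27, and 2, Rest and Nlgn2, lie to the left. Of all genes tested, 40.2% were called higher and 37.8% lower. Syt7 and Nrxn2 are among the 16 and passed the filter only through the LPS+NaBu libraries.

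The 19 genes with reads below the test level summed to 14 to 26.8 normalised counts per library with LPS, 12 to 23.9 in control and 60.2 to 86.2 with LPS+NaBu, so that the LPS+NaBu libraries lay above all others while control and LPS overlapped. These genes did not pass the filter, so no test of them is given. More genes of all kinds reached 10 normalised counts with LPS+NaBu. They numbered 14405 to 14540 per library, against 13447 to 13720 with LPS and 13284 to 13532 in control. The sum over all genes below the test level was not taken, so the rise is not particular to these 19 on these values. Reads with LPS+NaBu against LPS were 38 and 0 for Uchl1, a ubiquitin hydrolase abundant in neurons, 30 and 2 for Syn2 and 30 and 3 for Chgb. Nrxn3 (0 and 4), Scn3b (5 and 6) and Stmn3 (4 and 5) had fewer reads with LPS+NaBu. Uchl1 was at least 2.95-fold higher with LPS+NaBu than with LPS, taking 3 reads per library as the limit for a count of 0. In control, Uchl1 had 2 reads. The RNA-binding protein genes Elavl3 and Elavl4 had group means of at most 9.39 and 0.53, and Bex1 had no reads.

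The comparison of LPS with control asks what stimulation alone changed. Of the 20 genes, 3 were higher with LPS (15%) and 9 lower (45%), against 25.2% and 30.8% of all genes tested. The median log2 change was -0.05, and over all genes tested it was also -0.05. The genes that rose were Nlgn2, Celsr3 and Vgf. The 9 that fell were Syn1, Rab3a, Syt11, Cplx1, Unc13a, L1cam, Grin1, Cacna1a and Mapt, from 1.38-fold lower (Rab3a) to 3.56-fold lower (Cplx1). Scaled to the same sum, all genes shifted by a median of -0.23 and the split over all genes went from 3739 higher and 4568 lower to 2273 and 7074; the 20 genes then gave 2 higher and 9 lower.

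The comparison of LPS+NaBu with control shows where the levels ended relative to resting cells. Of the 20 genes, 15 were higher (75%) and 1, Cacna1a, was lower (5%), against 40.9% and 35.1% of all genes tested. Syt7 and Nrxn2 are among the 15 and passed the filter only through the LPS+NaBu libraries, as 1118 of the 14808 genes tested did. The filter favours higher values with LPS+NaBu for these 2, and counts without them are not given for this comparison. With both included, the median log2 change was 1.35, against 0.09 over all genes. All 15 that rose did so at least 2-fold, as 20.7% of all genes tested did. The genes that were not higher were Rest, Scg2, Dlg4, Cplx1 (log2 change -0.43 ± 0.43, adjusted p = 0.379) and Cacna1a (log2 change -0.46 ± 0.05, adjusted p = 1.36e-06). The 3 comparisons share libraries, so their counts are not independent of each other.

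Per kilobase of exon, the order of levels changed between groups. In control the highest genes of the set were Cacna1a (253 normalised counts per kb), Rest (245), Syn1 (231) and Nlgn2 (171). With LPS they were Nlgn2 (504), Rest (263), Cacna1a (165) and Syn1 (163). With LPS+NaBu they were Syn1 (1067), Vgf (582), Rab3a (479.5) and Nlgn2 (400.4), followed by Rest (220.2), Syt11 (204) and Stx1a (194). Grin1 and Mapt, which rose by 8.04 and 30.2 times over LPS, reached 15.9 and 15.5 per kb.

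Several of these genes share exon bases with a neighbour, and no source used here says whether the counting used strand. On the opposite strand, Unc13a shares 2758 exon bases with Colgalt1, Rab3a 541 with Mpv17l2, Syt11 497 with Rit1 and Syn1 23 with Araf. Colgalt1 and Araf were lower with LPS+NaBu than with LPS (means of 4805 against 5674 and 3061 against 3568), while Mpv17l2 (2167 against 992) and Rit1 (1571 against 668) were higher, as Rab3a and Syt11 were. L1cam shares 100 bases with Arhgap4 on the same strand (44.7 against 12.9). The low genes Syn3, Nefh and Ina each share over 500 bases with a neighbour that is higher by far, Syn3 with Fbxo7, Nefh with Ap1b1 and Ina with Nt5c2. How far these neighbours enter the counts was not tested. The positions in GRCm39 are chrX:20726750-20787397, minus strand, for Syn1, chr5:137055246-137062205, plus strand, for Vgf, chr11:104122024-104222946, plus strand, for Mapt, and chr5:77408131-77434284, plus strand, for Rest.

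Genes for the proteins that REST works through were called in both directions, with LPS+NaBu over LPS at shares close to those of all genes. Of 25 corepressor genes, 24 were tested, Ctdspl having reads in 1 library only, and with LPS+NaBu over LPS 9 were higher (37.5%) and 11 lower (45.8%), against 37.3% and 40.9% of the 13690 genes that passed on the control and LPS libraries alone, as all 24 did. The median log2 change of the 24 was -0.04. Scaled to the same sum, the split turned to 14 higher and 5 lower. Rcor1, the CoREST scaffold, rose from 3225 ± 407 to 5052 ± 380.4 (log2 change 0.65 ± 0.08, adjusted p = 7.49e-06), and Hdac1 from 5990.0 ± 143 to 8290.1 ± 245 (log2 change 0.47 ± 0.04, adjusted p = 3.48e-07), after a rise with LPS from 3732 ± 118 in control. Hdac2 fell 1.28-fold (log2 change -0.35 ± 0.04, adjusted p = 7.92e-06) and Kdm1a 1.14-fold (log2 change -0.19 ± 0.04, adjusted p = 0.000546). Sin3a did not pass the test (log2 change -0.08 ± 0.05, adjusted p = 0.136).

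Rises among the corepressors included those of Hmg20b (2.81-fold, log2 change 1.5 ± 0.08, adjusted p = 1.09e-09), a DNA-bending protein linked to the CoREST complex, and of Ctdsp2 (2.02-fold), a small phosphatase of the REST complex. The largest falls were those of Sap30, a SIN3 complex subunit (3.87-fold, log2 change -1.95 ± 0.05, adjusted p = 9.5e-13), Rbbp7, a histone-binding subunit (1.91-fold), and Ctdsp1, a phosphatase related to Ctdsp2 (1.9-fold). All 5 passed the test with adjusted p of at most 1.09e-09. With LPS over control, 7 of the 24 rose (29.2%) and 12 fell (50%), against 25.2% and 30.8% of all genes tested. When libraries were scaled to the same sum, 3 rose in that comparison. With LPS+NaBu over control, 9 rose (37.5%) and 13 fell (54.2%), against 40.9% and 35.1% of all genes tested. Those shares include 1118 genes that passed only through the LPS+NaBu libraries, which the filter favours as higher, while all 24 passed without them. Shares without the 1118 genes are not given for this comparison.

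Regulators of REST itself were measured as a list of 7 genes, of which 6 were tested. Srrm3 and Prickle1 passed the filter only through the LPS+NaBu libraries, so no test of them is given, and of the other 4, Btrc and Usp15 rose with LPS+NaBu over LPS while Usp7 and Terf2 did not pass. Srrm3, a splicing factor of neurons and endocrine cells that promotes neural exons of Rest transcripts among others, had 0, 1.0 and 0 in control, 0, 9.39 and 2.82 with LPS and 37.1, 34.6 and 34.5 with LPS+NaBu, and its close relative Srrm4 stayed below the test level with 36 reads against 2 with LPS. Prickle1, which has been reported to bind REST, averaged 4.94 with LPS and 52 with LPS+NaBu. Btrc, a ubiquitin ligase subunit that targets REST for degradation, rose 1.5-fold (log2 change 0.59 ± 0.06, adjusted p = 1.35e-06), and so did Usp15, a deubiquitinase reported to promote REST synthesis (1.43-fold). These values are per gene and do not show which Rest transcript was made.

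**Figure D4:**
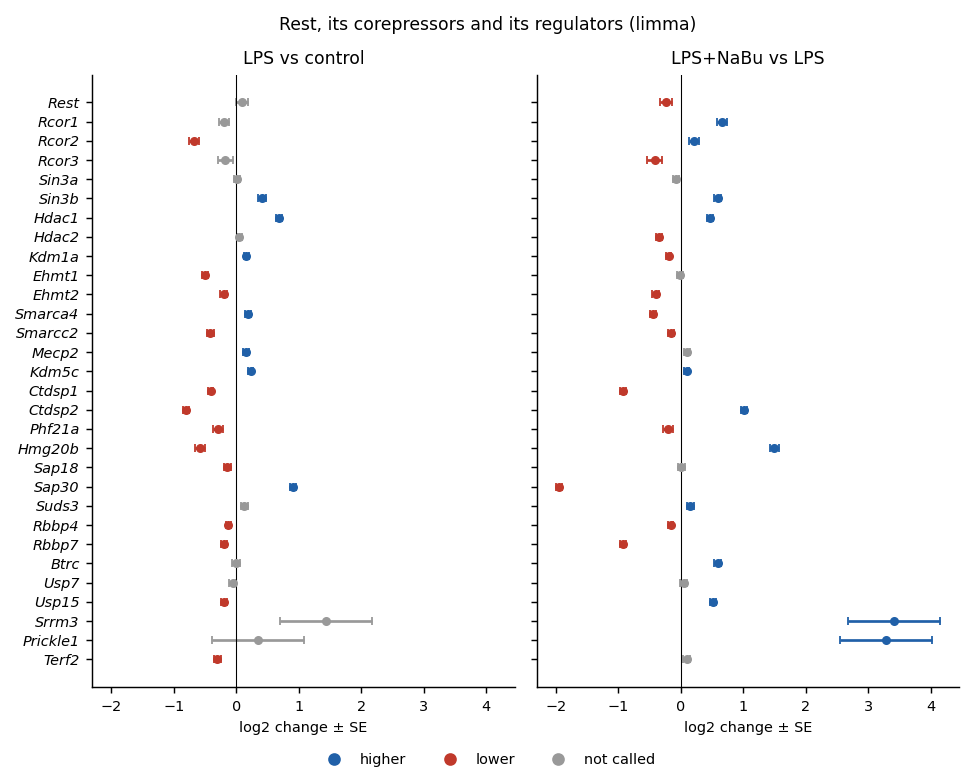
Log2 change ± SE of Rest, corepressors and regulators of REST for LPS over control and LPS+NaBu over LPS (limma, 9 libraries), coloured by the test. Changes of the corepressors drawn lie between -1.95 ± 0.05 (Sap30) and 1.5 ± 0.08 (Hmg20b) with LPS+NaBu over LPS. Srrm3 and Prickle1 lie above 3, but they passed the filter only through the LPS+NaBu libraries. No test of these 2 is given, so their colours are not read as calls.

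Other neuronal genes, named in lists apart from the 47, included both rises and genes without reads. Of 24 further presynaptic genes, 12 were tested and 6 had no reads. Of the 10 that passed on the control and LPS libraries alone, 7 rose with LPS+NaBu over LPS (70%), 3 fell (30%) and the median log2 change was 0.66, against 37.3%, 40.9% and -0.06 over the 13690 genes that passed in this way. Over all 12, 9 rose and 3 fell; scaling to the same sum and quantile normalization each left 1 lower, and a filter of 50 left 5 higher. Slc17a7, the vesicular glutamate transporter VGLUT1, went from 17, 15.3 and 11.3 with LPS to 1529, 1462 and 1263 (log2 change 6.53 ± 0.22, adjusted p = 1.31e-11). Syt3 had 86.6, 75.8 and 80.7 with LPS+NaBu and 2 reads with LPS, a ratio of 105 (95% interval 28.7 to 869.5) by counting error only. Bsn, the active zone scaffold bassoon, fell instead (2.82-fold, log2 change -1.49 ± 0.09, adjusted p = 3.15e-09), and a smaller fall was that of Syngr1 (-0.16 ± 0.07).

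Of 22 other genes reported as REST targets, 7 were tested and 8 had no reads. Of the 5 that passed on the control and LPS libraries alone, 4 rose with LPS+NaBu over LPS (80%) and 0 fell. Of the 13690 genes that passed in this way, 37.3% rose and 40.9% fell. Over all 7, 6 rose, a count that was 3 without LPS+NaBu replicate 2 and 3 with quantile normalization, where 1 was lower, as 1 was by edgeR. Stmn4 and Gad1 passed only through the LPS+NaBu libraries and are given as values. Stmn4, a stathmin of neurons, had 4.01, 2.35 and 5.65 with LPS and 175, 135 and 191 with LPS+NaBu, Mapk8ip1 rose 11.3-fold (log2 change 3.39 ± 0.26, adjusted p = 5.41e-08) and Gad1 had 11, 13.4 and 10.9 against 4.01, 4.7 and 2.82. Of 15 neuronal transcription factor genes, 1 reached the test level, through the LPS+NaBu libraries only. This gene, Neurog2, a proneural factor, had no reads in the control and LPS libraries and 58.4, 50.2 and 75.3 with LPS+NaBu, at least 17.1-fold above LPS. Of 17 genes of peptide processing and dense-core granules, 4 were tested. Cpe, carboxypeptidase E of granules, rose 2.32-fold (log2 change 1.22 ± 0.23, adjusted p = 0.000315), while Cadps, which primes dense-core granules, fell 7.59-fold (log2 change -2.92 ± 0.05, adjusted p = 7.02e-14) and Pam, a peptide-amidating enzyme, fell 1.21-fold.

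Cells outside the nervous system use related proteins for secretion, and these were expressed throughout. Of 17 such genes, 16 were found and tested, all of which passed on the control and LPS libraries alone. With LPS+NaBu over LPS 9 rose (56.2%) and 4 fell (25%), with a median log2 change of 0.19. Over the 13690 genes that passed in this way the values were 37.3%, 40.9% and -0.06. Rab3d, a secretory granule paralogue of Rab3a, rose 9.51-fold (log2 change 3.25 ± 0.06, adjusted p = 8.73e-14), and Nsf and Napa, which take spent SNARE complexes apart, rose 2.23-fold and 2.09-fold. Vamp8, a SNARE of granule and lysosome fusion, fell 3.38-fold (log2 change -1.75 ± 0.07, adjusted p = 1.08e-10), Stx3 2.44-fold and Stxbp2, a regulator of immune granule release, 1.5-fold. Snap23, the paralogue of Snap25 outside neurons, had 3570.2 ± 284 with LPS+NaBu and 1913 ± 99.3 with LPS, where Snap25 had no reads.

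Markers of other cell types were read beside these results. The 8 neuron markers summed to 906 to 1077 normalised counts per library in control, 687 to 728 with LPS and 5725 to 6350 with LPS+NaBu. Most of each sum was Syn1, which is 1 of the 47 genes, and with LPS+NaBu Slc17a7 made up most of the rest, so the sum is no separate reading. Of the 4 tested, Syn1 and Slc17a7 rose, and Tubb3 and Gad1 passed the filter only through the LPS+NaBu libraries, while Snap25 and Slc32a1, the vesicular GABA transporter, were at 0 reads in all 9 libraries. The 5 astrocyte markers summed to 375 to 398, 342 to 419 and 702 to 746 in the same order, with 3 of 3 tested genes higher and the water channel Aqp4 at 0. The 6 markers of oligodendrocytes and Schwann cells summed to 6258 to 6628, 2634 to 2657 and 4342 to 4446, nearly all from Mbp, with Mog and Olig2 at 0. The 8 endocrine markers summed to 178 to 222, 152 to 243 and 101 to 137, nearly all from Pomc, which was lower (-0.67 ± 0.19), with Ins1, Ins2, Gcg and Prl at 0.

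The 10 macrophage markers were detected in all libraries and summed to 463700 to 481000 in control, 634060 to 673210 with LPS and 217450 to 235890 with LPS+NaBu. Of them, 8 were lower with LPS+NaBu than with LPS (80%) and 1 was higher (10%). The shares of the 13690 genes that passed on the control and LPS libraries alone were 40.9% and 37.3%. The myeloid transcription factor gene Spi1 went from 15182, 17625 and 17149 to 2503, 2460.4 and 2181 (log2 change -2.8 ± 0.06, adjusted p = 4.41e-13), Csf1r fell 3.83-fold and the LPS co-receptor gene Cd14 18.2-fold, while Fcgr3 rose 1.31-fold and Aif1 did not pass. The part of these markers in the changes of the 47 genes was not tested.

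**Figure D5:**
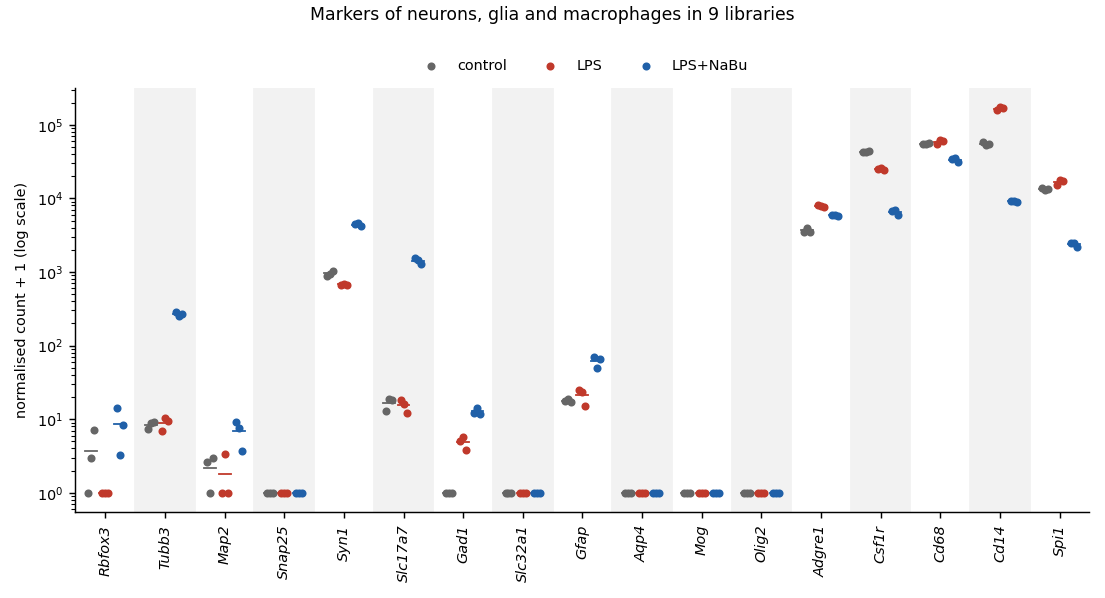
Normalised count + 1 (log scale) of markers of neurons (Rbfox3 to Slc32a1), glia (Gfap to Olig2) and macrophages (Adgre1 to Spi1) in the 9 libraries, with points for libraries and bars for group means. Slc17a7, Tubb3 and Syn1 lie higher with LPS+NaBu while Snap25, Slc32a1, Aqp4, Mog and Olig2 stay at 0 reads, and Cd14, Csf1r and Spi1 lie lower.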

How the data were processed

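The authors sequenced 9 RAW264.7 libraries, 3 each of control, LPS and LPS+NaBu, after a directional library preparation. Per the labels, the tools listed were STAR 2.7.7a and DESeq2 and the build was mm39, whereas the study's methods name Trimmomatic, HISAT2, featureCounts on uniquely mapped reads, a variance-stabilising step and limma; no source used here states a strand setting for the counting. The deposited signal values, named FPKM, were found to be gene counts divided by 1 size factor per library: multiples of the smallest step were whole within 0.01 for 100% of values, and in all libraries the step was the inverse of a median-of-ratios size factor. They are not divided by gene length, and the test fixed for FPKM-like values was kept.

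The 14808 of 43629 genes that reached 10 normalised counts in 3 or more libraries were fitted in 1 limma model (limma 3.58.1, R 4.3.3) on log2(value + 1) with a mean per group, all 9 libraries and an intensity trend. P-values are two-sided and adjusted by Benjamini-Hochberg across the tested genes, and calls were made at adjusted p below 0.05. Fold changes are ratios of group means, and log2 changes are on the log2(value + 1) scale, which understates changes of low genes. Reads recovered from the values (37.6 to 64.4 M per library, 1 M being 1e6) were tested by edgeR 4.0.16, which called 5455 genes higher and 6166 lower with LPS+NaBu over LPS, and by DESeq2 1.42.0; no paired analysis enters the main fit. A count of 0 was given a limit of 3 reads per library, and 95% intervals of ratios are exact binomial. Both cover counting error only and take the reads as independent, which the even numbers among low counts leave in doubt.

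Replicates are described as biological, and the labels do not say which cultures they came from, and the p-values therefore cover only the spread among these libraries, which may be technical. Of the gene identifiers, 89.4% matched GENCODE M39 (GRCm39), which gave positions, exon lengths and the 10 kb windows; RefSeq promoters (GRCm38.p6) covered 30 of the 47 genes, and coordinates of the builds were not mixed. Each library is 1 file, and no columns of the authors' own comparisons were used.

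The members and all gene lists were chosen with earlier results of these data known. Every member is named; values in every library are given for Rest and for members with a mean of at least 10 in a group that were called in at least 1 comparison. From each other list, up to 3 genes called higher and 3 called lower in LPS+NaBu against LPS were named, largest log2 change first, besides Rcor1, Kdm1a, Sin3a, Hdac1 and Hdac2; other genes named were added after their values were seen. Some genes that this rule selects are counted in their lists but not reported here. The alternatives were other pseudocounts, filters, scalings and tests, a fit of only 2 groups, a replicate block and leaving out each library.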

Additional observations from a re-analysis of the deposited data

How the results depend on the processing

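Of 1248 log2 changes recomputed for the 20 tested genes (20 to 21 alternatives for each gene and comparison), 1200 kept their direction and their side of the threshold. Of the 46 calls, 5 were lost under at least 1 alternative and 1, that of Rest, changed direction. The 5 were Rest, Cplx1, Nlgn2 and Cacna1a in LPS+NaBu against LPS, and Vgf in LPS against control. Of the 18 calls in LPS+NaBu against LPS, 14 held under all alternatives run. Syt7 and Nrxn2 are among these 14, although both passed the filter only through the LPS+NaBu libraries. The stricter filter among the alternatives left both genes out, so their calls are not read as held. The 46 calls also include calls of Syt7 and Nrxn2. The causes of the lost calls were not tested. Depth limits the 27 genes below the filter, of which those without reads could be present at up to 3 reads per library.

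The number of genes called lower in LPS+NaBu against LPS (2) became 0 when libraries were scaled to the same sum and 1 with quantile normalization, without the intensity trend or with only the 2 groups compared, and ranged from 1 to 2 when 1 library was left out. That in LPS+NaBu against control (1) became 2 with quantile normalization or only the 2 groups, and ranged from 1 to 2 when 1 library was left out (2 without LPS replicate 1). RE1 matches were held by 3 genes with at most 3 or 4 mismatches in promoters, 4 with 5, and 16 in the 10 kb windows, an alternative chosen after seeing the data.

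Directions turned as follows. Scaled to the same sum, the log2 change became -0.14 for Rest, -0.21 for Syp, -0.051 for Syt7, -0.15 for Dlg4 and -0.22 for Cacna1b in LPS against control, and 0.032 for Rest in LPS+NaBu against LPS. With quantile normalization it became -0.071 for Syp and -0.057 for Syt7 in LPS against control, and by edgeR -0.047 for Dlg4 in LPS+NaBu against LPS. Leaving out 1 library, the changes in LPS against control ranged from -0.044 to 0.19 for Rest, -0.082 to 0.073 for Syp, -0.48 to 0.61 for Syt7, -0.25 to 0.10 for Stx1a, -0.46 to 0.95 for Nrxn2 and -0.10 to 0.14 for Cacna1b; none of these passed the test in the main comparison.

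Among the other lists, scaling to the same sum gave for REST corepressors 3 higher in LPS against control and 14 higher and 5 lower in LPS+NaBu against LPS, for regulators of REST 4 lower in LPS against control, and 1 lower in LPS+NaBu against LPS for presynaptic and for dense-core granule genes. Quantile normalization gave for corepressors 4 higher in LPS against control and 6 lower in LPS+NaBu against LPS, for presynaptic genes 1 lower and for other REST targets 3 higher and 1 lower in LPS+NaBu against LPS, and for dense-core granule genes 1 higher in LPS+NaBu against control. A filter of 50 left 2 regulators of REST higher in both comparisons with LPS+NaBu, 5 presynaptic genes higher in LPS+NaBu against LPS and 0 other targets higher in LPS against control. By edgeR and by DESeq2, 1 regulator was higher in LPS against control, and by edgeR 1 other target was lower in LPS+NaBu against LPS. With no filter, 1 neuronal transcription factor was lower in LPS+NaBu against LPS and 1 against control. Leaving out 1 library, regulators higher in LPS against control ranged from 0 to 1 (1 without LPS replicate 1) and other targets higher in LPS+NaBu against LPS from 3 to 6 (3 without LPS+NaBu replicate 2).

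A block for the replicate number changed no call; libraries with the same number did not deviate together (correlations of deviations -0.04 to 0.02 over 9 pairs), so the numbers do not pair them.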
